A study of Mus musculus with 57 samples.

Results

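The Hox genes encode homeodomain transcription factors and lie in 4 clusters. Every protein-coding gene of the GENCODE M21 annotation with a symbol of Hoxa, Hoxb, Hoxc or Hoxd and a paralogue number was taken, which gave 39 of the 55450 genes in the count table. HoxA held 11 of them on chromosome 6 (chr6:52155590-52260880, minus strand, GRCm38). HoxB held 10 on chromosome 11 (chr11:96194316-96368256, plus strand). HoxC held 9 on chromosome 15 (chr15:102921103-103036852, plus strand). HoxD held 9 on chromosome 2 (chr2:74668310-74765142, plus strand).

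Bulk RNA-seq was performed on 57 libraries from 19 conditions, with 3 replicates in each. All cells came from Sox1-EGFP/FoxA2mCherry, a mouse embryonic stem cell (ESC) line made from 1 clone, in which EGFP replaced 1 Sox1 allele and mCherry was placed at the 3' end of FoxA2. Sox1 marks neuroectoderm and FOXA2 marks endoderm. The ESCs were maintained in serum with LIF (D0, Sox1-FOXA2-), or differentiated in N2B27 with 1 uM retinoic acid (RA) for 2, 4 or 6 days (D2, D4, D6) and sorted directly by the 2 reporters into 4 gates: double-negative (Sox1-FOXA2-), neural single-positive (Sox1+FOXA2-), endoderm single-positive (Sox1-FOXA2+) and double-positive (Sox1+FOXA2+). Gates were set against wild-type R1 ESCs, and equal numbers of cells were sorted. For the progeny conditions, cells of the last 3 gates were sorted at D2, replated with RA in serum-based medium and collected at D4 or D6, so that replating and medium cannot be told apart. D0 and D2 likewise differed in RA, basal medium and time together, and these cannot be told apart either. The names of the gates say how cells were sorted at D2 for progeny and at collection for the other conditions. The study describes the replicates as biological, without saying how their cultures were separated.

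The order of Hox genes in a cluster follows their use along the body axis. Genes of low paralogue number lie at the 3' end of a cluster and are switched on early and far forward in the embryo, in hindbrain and neighbouring tissues, whereas genes of high paralogue number lie at the 5' end and are used later and further back, up to the tail bud, limbs and hindgut. RA is known to activate the 3' genes through RA receptor sites near Hoxb1 and other genes of low paralogue number, and Polycomb complexes keep the clusters silent in ESCs. HOX proteins bind DNA with cofactors of the TALE family, the PBX, MEIS and PKNOX proteins.

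Of the 39 genes, 12 had 0 counts in all 57 libraries. All 12 lay entirely inside another annotated gene. Hoxa3, Hoxa4, Hoxa5 and Hoxa6 lay inside Gm28308, a coding gene that runs across the middle of HoxA. Hoxa4, Hoxa5 and Hoxa6 also lay inside Hoxa3 and the antisense gene Hoxaas3. In HoxB, Hoxb2 lay inside Hoxb3os, and Hoxb5 and Hoxb6 lay inside Hoxb5os. In HoxC, Hoxc6, Hoxc8 and Hoxc9 lay inside the long span of Hoxc5. In HoxD, Hoxd4 lay inside Hoxd3 and Hoxd8 lay inside Hoxd3os1. The same held across the table: 1351 protein-coding genes had their whole span inside other genes on either strand, and 100% of them had 0 counts, compared with 2.82% of the 11728 protein-coding genes that overlapped no other gene. Where all exon bases but not the whole span of a gene lay inside others, 5.80% of 138 genes were at 0. A count of 0 for these 12 Hox genes is therefore no measure of their expression. Sox1 and Sox2 were also at 0 in all libraries with their whole span shared, so that the Sox1 gate could not be checked against the Sox1 count.

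**Figure D1:**
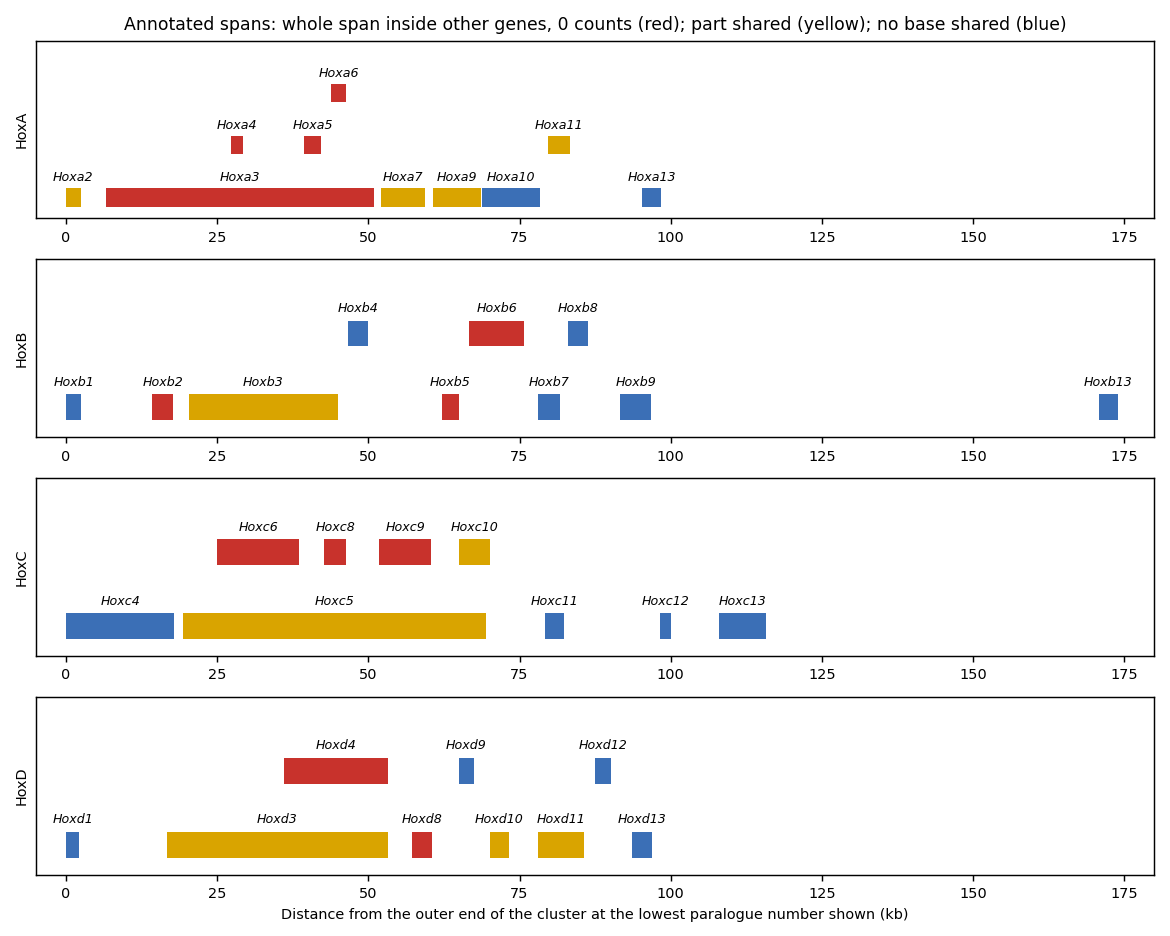
Map of the 4 Hox clusters drawn to scale, with the distance along each cluster in kb from the end of the shown Hox gene of lowest paralogue number (38 of 39 genes are shown). Bars are gene spans in GENCODE M21, in red where the whole span lay inside other genes (12 genes, all at 0 counts), in yellow where part was shared (10 of the shown genes) and in blue where no base was shared (16 genes).

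This left 27 countable genes: 7 of 11 in HoxA, 7 of 10 in HoxB, 6 of 9 in HoxC and 7 of 9 in HoxD. By paralogue number, 8 of 12 genes were countable in groups 1 to 4, 4 of 11 in groups 5 to 8 and 15 of 16 in groups 9 to 13, so the middle of the clusters was the least well covered. A total of 16 of the 27 shared no base with another gene and 11 shared part of their span. Reads over the shared part were not assigned, and the counts of, for example, Hoxa2 (61.0% of its span shared, with Gm28308), Hoxb3 (43.4%, with Gm11536 and Hoxb3os) and Hoxc5 (60.9%) came from the rest of the span. Hoxd3 was countable over the smallest remainder, with 98.6% of its span shared. Neighbouring Hox transcripts overlap within a cluster. Shared bases went uncounted whatever the strand of the other gene, as for Hoxb2 (plus strand) inside Hoxb3os (minus strand). The strand setting of the counting is not given in the sources used here. Antisense reads over the unshared part of a Hox gene could therefore not be separated from its own. Counts were detected in at least 29 libraries for 15 of the 27 genes and in fewer than 10 libraries for 6.

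Start regions are shown for the genes that were higher at D2 than at D0 (below), because these rose together. The RefSeq promoter table (GRCm38.p6) held 24 entries for 22 of the 39 symbols and 5 of the 10 genes called at D2. The 250 bases before the start are printed 5' to 3' for the 3 whose window held at most 6 exon bases of GENCODE M21. These are Hoxb1 (chr11:96365508-96365757, plus strand), Hoxb4 (chr11:96318017-96318266, plus strand) and Hoxb8 (chr11:96281655-96281904, plus strand). Capitals mark matches on either strand to AGGTCA or AGTTCA, core sites of nuclear receptors such as the RA receptors, or to TGATNNAT, a site for PBX with a HOX protein.
Hoxb1: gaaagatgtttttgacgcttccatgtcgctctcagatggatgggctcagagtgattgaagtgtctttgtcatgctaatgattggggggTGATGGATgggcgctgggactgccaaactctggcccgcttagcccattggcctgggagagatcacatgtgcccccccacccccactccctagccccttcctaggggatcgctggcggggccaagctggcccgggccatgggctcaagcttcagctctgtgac
Hoxb4: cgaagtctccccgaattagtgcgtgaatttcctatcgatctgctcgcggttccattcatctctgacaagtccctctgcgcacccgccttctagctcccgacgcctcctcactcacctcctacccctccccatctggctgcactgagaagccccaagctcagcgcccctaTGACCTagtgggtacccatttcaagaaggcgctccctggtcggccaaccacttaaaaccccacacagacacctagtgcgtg
Hoxb8: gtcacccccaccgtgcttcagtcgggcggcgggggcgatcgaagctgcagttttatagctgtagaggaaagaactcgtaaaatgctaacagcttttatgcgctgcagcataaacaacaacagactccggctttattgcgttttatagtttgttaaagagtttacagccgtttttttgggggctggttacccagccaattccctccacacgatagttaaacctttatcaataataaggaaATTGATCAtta

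The Hoxb1 window held TGATGGAT starting 162 bases before the start, and the Hoxb8 window held ATTGATCA, a match on the opposite strand, 11 bases before it. The Hoxb4 window held TGACCT, which is AGGTCA on the opposite strand, 81 bases before the start. TGATNNAT was found in 4 of the 24 Hox windows, 16.7%, and in 7.68% of all 32851 windows of the table. AGGTCA was found in 6 Hox windows, 25%, and in 14.0% of all windows, and AGTTCA in 2 Hox windows, 8.33%, and in 11.8% of all. In total 15 motifs were searched on both strands. No Hox window held a direct repeat of core sites with 5 bases between them, searched as AGGTCA or AGTTCA followed by AGGTCA or AGTTCA, or a direct repeat of AGGTCA with 2 bases between them. These 5 forms contain the core sites above, and each was held by at most 0.0213% of all windows. The other motifs were GGGTCA (1 Hox window, 4.17%, against 11.6% of all), the MEIS site TGACAG (8.33% against 15.9%), the CDX site TTTATNG (8.33% against 9.81%), the GC box GGGGCGGGG (4.17% against 10.4%), CCAAT (58.3% against 33.8%), TATAAA (16.7% against 12.4%) and GATA (54.2% against 53.6%). A match is a description of the letters in this window only.

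Library totals were 10170632 to 81845651 counts (median 36694379), with a count in 14458 to 27832 genes (median 20390). The 39 sorted libraries had totals of 20391512 to 61358355, and the 18 progeny libraries had totals of 10170632 to 81845651. Several libraries stood apart in markers of other states, which are given as summed normalized counts (counts divided by the size factor of the library). Pluripotency markers summed to 34373 and 30148 in replicates 2 and 3 of Sox1-FOXA2- D2 and to 26313 in replicate 3 of Sox1+FOXA2- D2. They summed to 81421, 29515 and 76284.5 in the D0 libraries and 2214 to 10546 in the other 9 D2 libraries. In replicate 1 of Sox1-FOXA2- D4 the sum was 40517 (17771 and 10133 in the others), and its summed Hox level was 1659 (5466 and 4440). At D6 the pluripotency sum was 17211 in replicate 3 of Sox1+FOXA2- (8358 and 4846) and 18252 in replicate 3 of Sox1+FOXA2+ (5692 and 3582). At D2, Foxa2 was 1067 to 3241 in the 6 FOXA2+ libraries and 0 to 324 in the 6 FOXA2- libraries. In the 3 Sox1+FOXA2+ D6 libraries, Foxa2 was 0, 728 and 77, so that replicates 1 and 3 were within the 5.09 to 142 of the double-negative and 20.3 to 131 of the Sox1+FOXA2- libraries of D6 or below them and went against their label. In replicate 3 of these, endoderm markers summed to 590173 and neural markers to 748. In replicate 1 of Sox1+FOXA2+ D4, Foxa2 was 214, within the 0 to 251 of the FOXA2- gates of D4, and the summed Hox level was 2025, compared with 7679 and 7231 in the other replicates. The part of these libraries in the results was not tested beyond leaving each out in turn. No comparison set the double-negative D4 gate against another, so its libraries were not left out.

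The summed level of the 27 countable Hox genes was 177, 171 and 74 normalized counts in the 3 D0 libraries (mean 140.6 ± 57.4, SD, n = 3). At D2 the sum was 6238 ± 3064 in Sox1-FOXA2- cells, 9429 ± 3334 in Sox1+FOXA2- cells, 7719 ± 2081 in Sox1-FOXA2+ cells and 8094 ± 1266 in Sox1+FOXA2+ cells, and the lowest D2 library (3533) was above the highest D0 library. The mean over the D2 libraries was 55.97 times the D0 mean. At D4 the gate means lay between 2646 ± 365 (Sox1-FOXA2+) and 7407 ± 2437 (Sox1+FOXA2-), and at D6 between 1803 ± 479 (Sox1-FOXA2+) and 4699 ± 893 (Sox1+FOXA2-). In the D6 progeny the sum was 5229 ± 588 in Sox1+FOXA2-, 4507 ± 1192 in Sox1+FOXA2+ and 1072 ± 201 in Sox1-FOXA2+ progeny, without overlap between the last and the other two. In bulk samples, fewer cells that express a gene and less RNA per cell cannot be told apart.

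**Figure D2:**
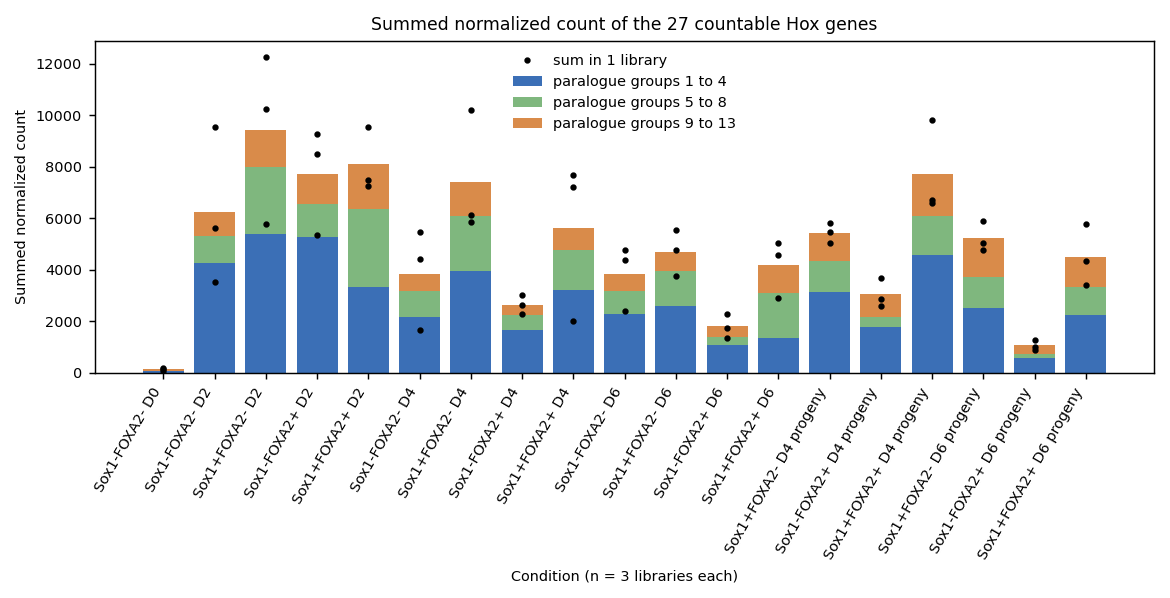
Summed normalized count of the 27 countable Hox genes in 19 conditions, stacked by paralogue groups 1 to 4, 5 to 8 and 9 to 13. Bars are means of 3 libraries and points are the sums of single libraries. The D0 bar (140.6) is hardly visible at this scale, and the Sox1-FOXA2+ D6 progeny have the lowest bar after D0 (1072).

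HoxB gave the largest share of the sum in every condition, from 44.2% (Sox1+FOXA2+ D6) to 79.2% (Sox1+FOXA2+ D2), and HoxD gave 0.462% to 5.49% in all conditions but D0. Groups 1 to 4 gave 32.8% to 68.5% of the sum. Groups 10 to 13 gave 1.08% to 3.01% at D2, 13.7% in Sox1-FOXA2+ D6, 17.7% in Sox1+FOXA2+ D6 and 24.4% in Sox1-FOXA2+ D6 progeny, and 28.1% of the small D0 sum, all from 119 normalized counts of Hoxd13 in replicate 2. Single libraries weighed on the sorted D6 shares too, with Hoxa10 at 452 in replicate 2 of Sox1-FOXA2+ D6 (sum of groups 10 to 13, 248 ± 192) and Hoxc13 at 682 in replicate 2 of Sox1+FOXA2+ D6 (740 ± 528). In Sox1-FOXA2+ D6 progeny their summed level was 261 ± 107, compared with 186 ± 43.4 in Sox1+FOXA2- D6 progeny, so the larger share stood beside a lower sum of the other groups.

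**Figure D3:**
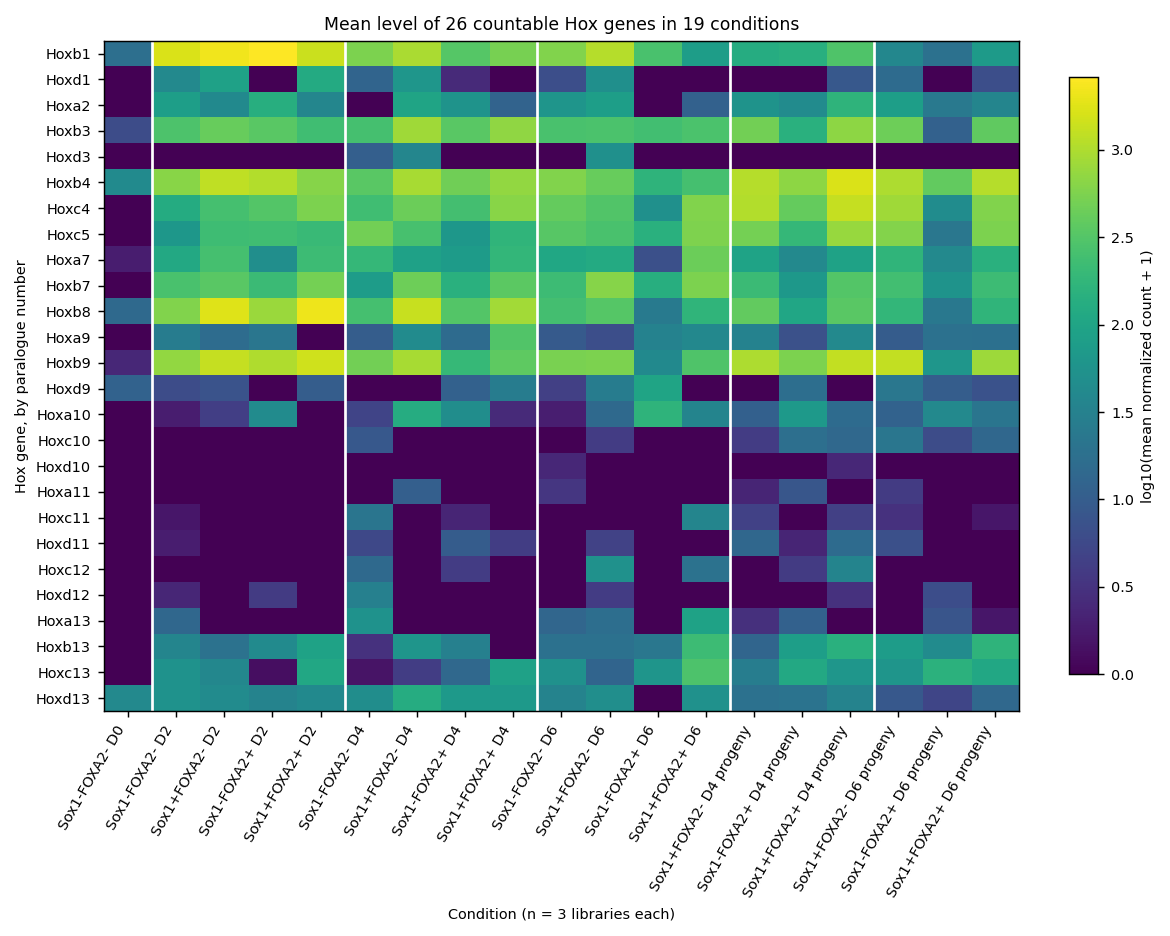
Mean level of 26 of the 27 countable Hox genes, ordered by paralogue number, in 19 conditions (log10 of the mean normalized count + 1, n = 3 libraries each). The shown genes of groups 1 to 9 were at most 127 counts in any D0 library, groups 10 to 12 were low in most conditions, and the Sox1-FOXA2+ D6 progeny column is darker than its neighbours from Hoxb3 to Hoxb9.

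Levels between genes were compared per kb of exon that no other gene shares. The zero counts above follow the shared span rather than the shared exons, so counts may come from the whole span, and the ranks below depend on the length used (for Hoxb3, 492 unshared exon bases against 13936 unshared bases of the span). Within groups 1 to 4 Hoxb3 (714 normalized counts per kb) and Hoxb1 (294) were among the 3 genes with the highest mean level over all libraries. Within groups 5 to 8 the mean level was highest for Hoxb8 (201), Hoxb7 (170) and Hoxc5 (102), and within groups 9 to 13 for Hoxb9 (264), Hoxc13 (26.8) and Hoxb13 (25.8). These means pool all conditions, whose levels differ, so the order need not hold within a condition. Over all exon bases 8 of the 9 genes highest in these ranges were kept, with Hoxb4 (275 per kb) in place of Hoxb3 (82.7 per kb), so the rank of Hoxb3 rests on the length chosen. Per kb of the span that no other gene shares, 6 of the 9 were kept, with Hoxb4, Hoxa7 and Hoxd13 in place of Hoxb3 (25.2 per kb), Hoxc5 (15.3) and Hoxc13 (8.54), so the ranks of Hoxc5 and Hoxc13 rest on it too. The following levels are normalized counts as mean ± SD of 3 libraries.

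Hoxb1 belongs to the paralogue group that patterns the hindbrain. In the order Sox1-FOXA2-, Sox1+FOXA2-, Sox1-FOXA2+ and Sox1+FOXA2+, Hoxb1 was 1662 ± 1286, 2227 ± 1429, 2601 ± 481 and 1385 ± 677 at D2, 545 ± 439, 972 ± 539, 326 ± 49.8 and 516 ± 726 at D4, and 593 ± 430, 1076 ± 536, 270 ± 453 and 77.9 ± 86.2 at D6. Its mean in each of the 4 gates was thus highest at D2. In the progeny, given as Sox1+FOXA2-, Sox1-FOXA2+ and Sox1+FOXA2+, Hoxb1 was 127 ± 97.3, 142 ± 97.4 and 294 ± 158 at D4 and 37.3 ± 63.5, 17.9 ± 17.0 and 71.3 ± 57.2 at D6.

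Hoxb3 acts in the hindbrain and upper spinal cord. In the order of gates above (Sox1-FOXA2-, Sox1+FOXA2-, Sox1-FOXA2+, Sox1+FOXA2+), it was 290 ± 313, 412 ± 309, 350 ± 239 and 234 ± 107 at D2, 256 ± 237, 840 ± 545, 351 ± 295 and 702 ± 416 at D4, and 270 ± 126, 276 ± 236, 239 ± 120 and 282 ± 310 at D6. The progeny, in the order of progeny gates above, had 480 ± 237, 147 ± 142 and 689 ± 152 at D4 and 462 ± 94.1, 10.4 ± 9.91 and 381 ± 82.6 at D6. The SD was close to the mean in many of the sorted gates. At D6 the Sox1-FOXA2+ progeny lay below both other progeny gates, which overlapped each other.

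Among groups 5 to 8, which pattern the cervical and thoracic levels, Hoxb7 was 269 ± 66.7, 344 ± 269, 215 ± 115 and 506 ± 365 at D2, 75.9 ± 93.7, 452 ± 466, 147 ± 153 and 356 ± 192 at D4, and 221 ± 126, 619 ± 502, 140 ± 219 and 548 ± 529 at D6. Hoxb8 was 591 ± 182, 1779 ± 589, 795 ± 481 and 2115 ± 893 at D2, 256 ± 37.3, 1352 ± 990, 317 ± 197 and 871 ± 1119 at D4, and 250 ± 56.7, 323 ± 179, 24.4 ± 42.3 and 169 ± 204 at D6. Hoxc5 was 63.7 ± 75.9, 222 ± 129, 230 ± 159 and 208 ± 240 at D2, 481 ± 399, 264 ± 27.6, 63.7 ± 66.0 and 172 ± 178 at D4, and 338 ± 174, 273 ± 167, 148 ± 225 and 576 ± 281 at D6. Hoxb8 had its highest mean at D2 in each of the 4 gates, whereas this held for Hoxb7 in Sox1-FOXA2- and Sox1-FOXA2+ cells and for Hoxc5 in Sox1-FOXA2+ cells only. In the progeny, Hoxb7 was 211 ± 158, 65.4 ± 50.1 and 312 ± 194 at D4 and 241 ± 24.6, 55.7 ± 31.5 and 221 ± 177 at D6. Hoxb8 was 388 ± 129, 105 ± 61.0 and 348 ± 25.7 at D4 and 182 ± 34.1, 22.6 ± 27.7 and 172 ± 145 at D6. Hoxc5 was 504 ± 418, 187 ± 78.2 and 763 ± 145 at D4 and 603 ± 115, 21.7 ± 29.1 and 553 ± 194 at D6. The Sox1-FOXA2+ progeny had the lowest mean of the 3 progeny gates for all of Hoxb7, Hoxb8 and Hoxc5 at both days.

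Hoxb9, a gene of the thoracic level, was 732 ± 422, 1313 ± 989, 1029 ± 490 and 1463 ± 237 at D2, 493 ± 277, 919 ± 483, 194 ± 61.0 and 365 ± 194 at D4, and 532 ± 459, 554 ± 88.6, 40.7 ± 70.5 and 298 ± 278 at D6. Its progeny levels were 981 ± 80.4, 546 ± 68.2 and 1277 ± 401 at D4 and 1281 ± 425, 61.2 ± 57.02 and 812 ± 272 at D6. Hoxb13 and Hoxc13 are the last genes of their clusters and act in tail bud, hindgut and prostate or in hair. Both had lower means than Hoxb9 in most of the conditions given here. The mean of Hoxc13 was above that of Hoxb9 in Sox1-FOXA2+ cells at D6 and in Sox1-FOXA2+ D6 progeny. Hoxb13 was 35.1 ± 28.8, 18.2 ± 23.3, 41.5 ± 68.5 and 92.5 ± 90.8 at D2, 2.04 ± 3.53, 60.2 ± 42.5, 29.6 ± 37.3 and 0 at D4, and 17.9 ± 15.47, 17.8 ± 30.8, 21.7 ± 37.6 and 220 ± 219 at D6. Hoxc13 was 54.8 ± 45.2, 36.8 ± 63.7, 0.328 ± 0.567 and 110 ± 191 at D2, 0.509 ± 0.882, 3.17 ± 2.75, 13.2 ± 14.4 and 90.0 ± 156 at D4, and 52.9 ± 55.9, 11.7 ± 20.2, 59.8 ± 54.9 and 289 ± 344 at D6. Single libraries set many of these means, as Hoxc13 was 138, 682 and 46.0 in the 3 Sox1+FOXA2+ D6 libraries. In the progeny Hoxb13 was 12.04 ± 19.7, 81.2 ± 23.8 and 146 ± 157 at D4 and 76.96 ± 33.2, 43.0 ± 58.4 and 164 ± 169 at D6. Hoxc13 was 26.6 ± 23.4, 114 ± 79.7 and 61.2 ± 3.21 at D4 and 59.0 ± 19.9, 158 ± 84.6 and 111 ± 60.2 at D6.

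The other 18 countable genes differed widely in level. Hoxb4 reached 1683 ± 887 and Hoxc4 1287 ± 336, both in Sox1+FOXA2+ D4 progeny, and Hoxa7 reached 444 ± 272 in Sox1+FOXA2+ D6. Hoxa2 reached 164 ± 54.8 in Sox1+FOXA2+ D4 progeny and Hoxd1 122 ± 124 in Sox1+FOXA2+ D2. Hoxa9 (305 ± 478) in Sox1+FOXA2+ D4 and Hoxa10 (166 ± 248) in Sox1-FOXA2+ D6 had their highest means through 1 library, with 857 and 452 in replicate 2. Hoxd3, Hoxd10, Hoxa11, Hoxc11, Hoxd12 and Hoxc12 each had a count in fewer than 10 libraries. So few counts limit what a comparison between conditions can show, and the size of a detectable difference was not tested.

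The early effect of RA differentiation was read from D2 against D0. Of the 17 Hox genes tested, 10 were higher at D2 and none was lower, by the quasi-likelihood test of edgeR, with p-values adjusted over all genes by the Benjamini-Hochberg method. The same test and adjustment gave all adjusted p-values below, and a gene was called at an adjusted p under 0.05. Among all 21037 genes tested, 7.7% were called in either direction and 3.28% were called higher. Among the 10 were Hoxb1, Hoxb3, Hoxb4 and Hoxc4, Hoxc5, Hoxa7 and Hoxb7, Hoxb8, and Hoxb9, and the called genes came from groups 1, 3, 4, 5, 7, 8 and 9. Genes that are 0 at D0 pass the filter on low counts only through D2, and had to be higher there. The other called genes whose D0 values are given below were at or near 0 in most D0 libraries. They too passed the filter mainly through D2, which largely set their direction. The counts of higher and lower Hox genes, and their distance from the share of all genes, therefore do not test direction.

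Hoxb9 was 0, 0 and 4.13 normalized counts in the D0 libraries and 261 to 2298 (median 1133) in the 12 D2 libraries, without overlap. The ratio of the means was 823 and the log2 fold change was 10.22 (SE 1.11, adjusted p = 3.87e-06). Over 21 alternative fits, which include leaving out single libraries, this log2 fold change was 9.34 to 13.44. Hoxb7 and Hoxc4 were 0 in all 3 D0 libraries. Hoxb7 was 37.1 to 928 (median 296) at D2, at least 84.0-fold higher by the means than a level of 3 counts in each D0 library (adjusted p = 0.000653). Hoxc4 was 2.19 to 915 (median 168) at D2, at least 78.3-fold higher on the same basis (adjusted p = 0.00629). All 12 D2 libraries had counts of Hoxb7 and Hoxc4, although Hoxc4 was as low as 2.19 in replicate 3 of Sox1-FOXA2+ cells.

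Hoxb8 was 0, 0 and 41.3 at D0 and 294 to 3125 (median 1276) at D2, 95.8 times the D0 mean (log2 fold change 6.68, SE 1.23, adjusted p = 0.00314). Hoxb1 was 49.8, 0.659 and 0 at D0 and 316 to 3623 (median 1957) at D2, 117 times the D0 mean (log2 fold change 6.84, SE 1.41, adjusted p = 0.0115). Hoxb3 was 0, 15.8 and 0 at D0 and 86.9 to 754 (median 288) at D2, 61.0 times the D0 mean (log2 fold change 5.73, SE 1.59, adjusted p = 0.0269). For these 3 genes each D2 library was above all D0 libraries. Hoxb4 was 127, 0 and 0 at D0 and 474 to 1434 (median 869) at D2, 20.8 times the D0 mean (log2 fold change 4.31, SE 1.24, adjusted p = 0.0419), again without overlap. Hoxc5 was 0 in all D0 libraries and 0 to 470 (median 152) at D2, at least 45.6-fold higher (adjusted p = 0.0206), and its groups overlapped because replicate 3 of Sox1+FOXA2+ D2 was also 0. Hoxa7 (adjusted p = 0.0468) passed narrowly. Of the 10 genes, 8 did not overlap between D0 and D2. The share of all genes without overlap was not computed, so this count is no result about the Hox genes. Fold changes over a D0 group near 0 moved widely over the same alternative fits. On the log2 scale they were 6.21 to 11.70 for Hoxb1 and 5.21 to 11.56 for Hoxb3. For Hoxb4 the range was 3.73 to 13.05, and for Hoxb8 it was 5.99 to 13.50. The Hox genes that were tested and not called were Hoxa2 (adjusted p = 0.14), Hoxb13 (adjusted p = 0.165), Hoxd1, Hoxa9, Hoxd9, Hoxc13 and Hoxd13.

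Pluripotency markers fell at the same time, 5 of 7 being lower at D2 and none higher, and 4 of 12 endoderm markers tested were higher (Sox17, Sox7, Col4a2 and Lamb1). Also higher were Pax6 (log2 fold change 3.89) among 5 neural, Meox1 (5.51) among 6 mesoderm and Twist1 (5.96) among 10 neural crest and mesenchyme markers tested, with none lower in these lists. The pluripotency list of 7 genes, with Zfp42 the most abundant, had no gene at 0 in any D2 gate and summed to 25022 ± 12714 in Sox1-FOXA2- and 2503 ± 369 in the Sox1-FOXA2+ gate, against 62407 ± 28601 at D0. The part of undifferentiated cells or of these cell types in the Hox levels was not tested. Nanog was still 4247 in replicate 3 of Sox1+FOXA2- D2 and Hoxb1 was at its lowest in that gate (767). Without this library 7 Hox genes were called, and the same number was called without replicate 2 or 3 of Sox1-FOXA2- D2. With DESeq2, 13 Hox genes were called, beside 3261 of all 21037 genes. The count of called Hox genes was 6 without replicate 1 or 3 of D0, or without replicate 1 of Sox1-FOXA2-, Sox1+FOXA2- or Sox1-FOXA2+ D2. Hoxb1, Hoxb7, Hoxb8, Hoxb9 and Hoxc4 kept their call in 21 of 21 alternatives, whereas Hoxa7 kept it in 8 and Hoxb4 in 8.

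The genes of the pathway upstream and of the cofactors were examined as lists. In the RA response list all 21 genes were tested at D2 against D0, and 8 were higher and 1 lower. Cyp26a1 and Cyp26b1, which degrade RA, both rose. Cyp26a1 rose by 9.66 on the log2 scale (SE 1.15, adjusted p = 0.000261), and Cyp26b1 from 0 in all D0 libraries to gate means of 579 ± 599 to 1432 ± 682 at D2 (adjusted p = 3.96e-06). Also higher were Rarb, an RA receptor (4.81), Dhrs3, a retinal reductase (7.16), Stra8 (5.12), the RA-binding protein Crabp2 (2.51), and the corepressor Nrip1 (2.76). Rarg, an RA receptor at 4660 ± 1114 in D0, fell by 2.13 on the log2 scale. Of the 9 TALE cofactors, 6 were higher and none lower, among them Meis1 (4.74), Meis2 (4.93), Pbx2 (1.52), Pbx3 (1.98) and Pknox2 (2.88). The median log2 fold change was 2.09 in the RA list and 2.68 in the TALE list, compared with 0.07 over all genes.

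Of 10 forebrain and midbrain genes tested, Otx2 fell by 5.81 on the log2 scale and none rose. Of 7 hindbrain genes tested, 1 was higher and none lower. Of 7 genes of the posterior axis tested, Gdf11 rose by 2.93, and Fgf17 and Sall4 fell by 6.01 and 0.87. Cdx1 and Cdx2, which activate central Hox genes in the embryo, were low, with gate means at D2 of 33.7 to 144 and 18.8 to 46.0. Of 15 Polycomb and trithorax genes, the Polycomb genes Eed, Jarid2 and Suz12 fell by 1.28, 0.98 and 0.82 and Bmi1 rose by 3.36. Of the 6 ParaHox and neighbouring homeobox genes, 1 could be tested and was not called.

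The time course of the sorted gates asked whether Hox levels changed from D2 to D6. No Hox gene of 20 tested was called in any gate. Among 26096 genes tested, 0.0766% were called in Sox1-FOXA2-, 0.0268% in Sox1+FOXA2-, 0.858% in Sox1-FOXA2+ and 0.556% in the Sox1+FOXA2+ gate, so few genes of any kind passed in these comparisons. At an unadjusted p under 0.05, 0, 1, 6 and 7 Hox genes passed in the 4 gates. Among all genes, 1765, 2154, 3555 and 5393 passed. DESeq2 called 0, 0, 5 and 4 Hox genes, where it called 10.9% of all genes in Sox1-FOXA2+ and 14.2% in the Sox1+FOXA2+ gate. In Sox1-FOXA2+ cells, 2 Hox genes were called without replicate 1 of D6 and 1 without replicate 2 of D6.

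**Figure D4:**
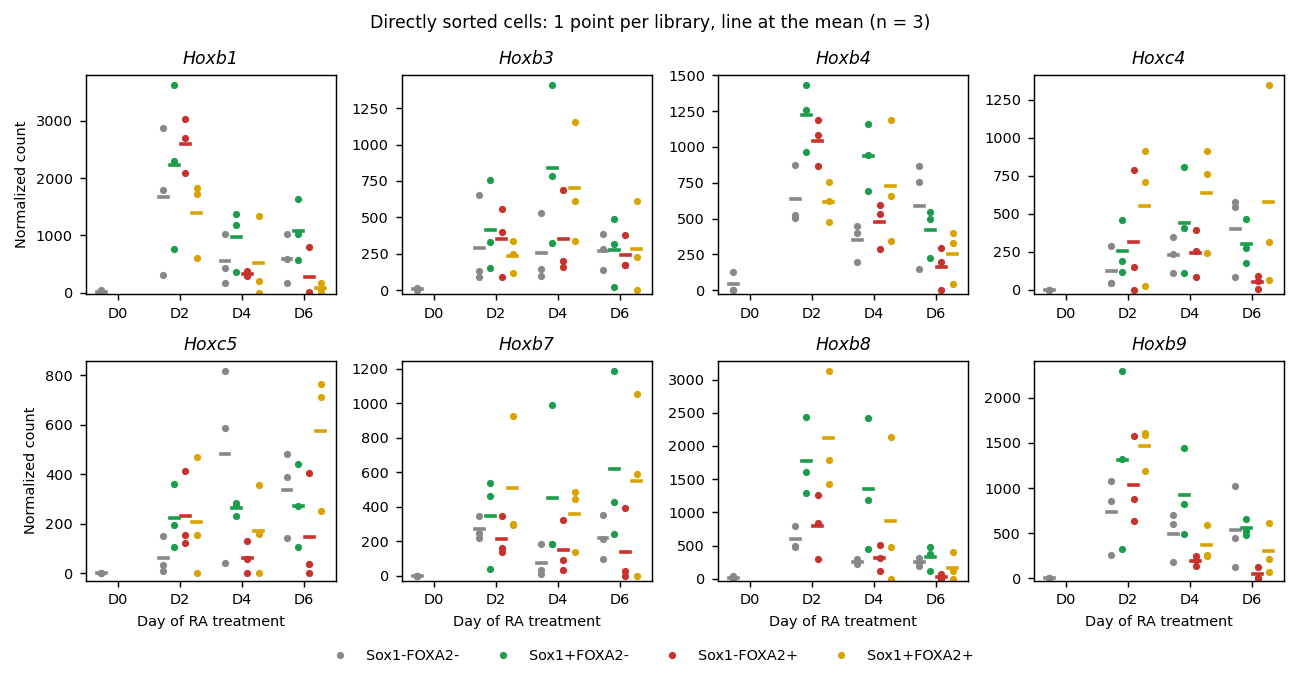
Normalized counts of 8 Hox genes in directly sorted cells at D0, D2, D4 and D6, with 1 point per library and a line at the mean of 3. Gates are shown by colour. Points at D2 lie above those at D0 for most genes, and Hoxb8 and Hoxb9 are at 0 in 2 of 3 Sox1-FOXA2+ libraries at D6.

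In Sox1-FOXA2+ cells, Hoxb9 was 882, 631 and 1576 at D2 and 122, 0 and 0 at D6, without overlap, 25.3 times lower by the means (log2 fold change -4.62, SE 1.38, adjusted p = 0.141). Hoxb8 was 836, 294 and 1254 at D2 and 73.3, 0 and 0 at D6, also without overlap (log2 fold change -4.97, SE 1.61, adjusted p = 0.219). Hoxa2 was 0 in all D6 libraries and 0 to 376 at D2, with overlap (adjusted p = 0.309). In Sox1+FOXA2+ cells, Hoxb1 was 1834, 1715 and 606 at D2 and 172, 3.03 and 58.5 at D6 (log2 fold change -4.54, SE 1.66, adjusted p = 0.226). Hoxb8 was 1793, 1428 and 3125 at D2 and 395, 112 and 0 at D6 (log2 fold change -3.97, SE 1.53, adjusted p = 0.233), and Hoxd1 was 0 at D6 and 118, 249 and 0 at D2 (adjusted p = 0.237). The groups of Hoxb1 and Hoxb8 did not overlap and were still not called, and the D6 gate holds the 2 libraries that went against their label. In Sox1-FOXA2- cells, Hoxc5 (adjusted p = 0.817) and Hoxc4 (adjusted p = 0.96) had overlapping groups with higher D6 means. In Sox1+FOXA2- cells, where no Hox gene was called without replicate 3 of D2 either, Hoxc12 was 0 in all D2 libraries and 0, 13.4 and 146 at D6, and Hoxa13 was 0 in all D2 libraries and reached 47.9 in 1 D6 library (adjusted p = 0.572 each).

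Whether the change from D2 to D6 differed between Sox1-FOXA2+ and Sox1+FOXA2- cells was tested as an interaction. None of 20 Hox genes was called, compared with 0.192% of all genes. An unadjusted p under 0.05 was reached by 1 Hox gene and 2325 of all 26096 genes. DESeq2 called 2 Hox genes and 1482 of all genes. Without replicate 1 of Sox1-FOXA2+ D6, 1 Hox gene was called. The smallest p-values were those of Hoxa2 (log2 difference -11.16, SE 4.63, adjusted p = 0.469), Hoxc13 (8.65, SE 4.37, adjusted p = 0.571) and Hoxd13 (-8.39, SE 4.39, adjusted p = 0.589), each with libraries at 0. For Hoxb9, not called in either gate, the change was not shown to differ between the gates (log2 difference -3.20, SE 1.72, adjusted p = 0.61).

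Between gates of 1 day, Sox1-FOXA2+ cells were compared with Sox1+FOXA2- cells. At D2, with replicate 3 of Sox1+FOXA2- high in pluripotency markers (26313), none of 17 Hox genes was called with or without it. Of all 20369 genes 1 was called, or 0.00491%. In the full comparison 2 Hox genes and 1031 of all genes had an unadjusted p under 0.05. DESeq2 called no Hox gene and 261 of all genes. Hoxb8 was 836, 294 and 1254 in Sox1-FOXA2+ and 2435, 1603 and 1298 in the Sox1+FOXA2- gate, without overlap (log2 fold change -1.16, SE 0.48, adjusted p = 0.915). Hoxd1 (0 against 0 to 254) and Hoxd9 (0 against 0 to 15.7) were 0 in all Sox1-FOXA2+ libraries (adjusted p = 0.915 and 0.918). At D4, none of 18 Hox genes was called (0.266% of all genes). Here 2 Hox genes and 1250 of all 22946 genes had an unadjusted p under 0.05. DESeq2 called no Hox gene and 534 of all genes. Hoxb9 was 206, 249 and 129 in Sox1-FOXA2+ and 491, 1442 and 825 in the Sox1+FOXA2- gate, without overlap, 4.73 times lower by the means (log2 fold change -2.18, SE 0.92, adjusted p = 0.881). Hoxd3 was 0 in Sox1-FOXA2+ and 0 to 74.4 in Sox1+FOXA2- cells, and Hoxd11 was 0 in Sox1+FOXA2- and 0 to 26.99 in Sox1-FOXA2+ cells.

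At D6, the same pair of gates gave no call among 19 Hox genes (1.32% of all genes), and 1 call without replicate 1 of the Sox1-FOXA2+ gate. A total of 4 Hox genes and 3255 of all 24203 genes had an unadjusted p under 0.05. DESeq2 called 1 Hox gene and 1641 of all genes. Hoxa2 was 0 in all 3 Sox1-FOXA2+ libraries and 59.2 to 109 in Sox1+FOXA2- cells, at least 22.8-fold lower (adjusted p = 0.371). Hoxd13 was 0 against 3.68 to 126, at least 13.6-fold lower, and Hoxd1 was 0 against 0 to 140 (adjusted p = 0.371 each). Groups of Hoxa2 and Hoxd13 did not overlap. Sox1+FOXA2+ cells were compared with either gate at D6 with no Hox gene called (0.0496% of all genes against Sox1+FOXA2- and 0.0909% against Sox1-FOXA2+). In this order, 2 and 4 Hox genes had an unadjusted p under 0.05, beside 1073 and 3432 of all genes. DESeq2 called 0 and 1 Hox genes, beside 238 and 1587 of all genes. Hoxb1 was 172, 3.03 and 58.5 in Sox1+FOXA2+ and 1028, 1634 and 566 in the Sox1+FOXA2- gate (log2 fold change -4.10, SE 1.70, adjusted p = 1). Hoxd1 (0 against 0 to 140) and Hoxc13 (46.0 to 682 against 0 to 34.98) followed. Against Sox1-FOXA2+ cells, Hoxa7 was 512, 676 and 145 against 2.04, 15.3 and 0 (log2 fold change 5.91, SE 2.47, adjusted p = 0.351), followed by Hoxa13 and Hoxd13, which were 0 in all Sox1-FOXA2+ libraries. No call appeared when any 1 library, including those that went against their label, was left out of the Sox1+FOXA2+ comparisons.

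The progeny comparisons asked whether the D2 gate still marked a difference after replating. At D4, Sox1-FOXA2+ progeny were set against Sox1+FOXA2- progeny, and none of 17 Hox genes was called (1.97% of all genes). An unadjusted p under 0.05 was reached by 4 Hox genes and 2125 of all 20697 genes. DESeq2 called 2 Hox genes and 750 of all genes. Replicate numbers paired these samples, and the replicate block called 1 Hox gene and 885 of all genes. Without replicate 1 of Sox1+FOXA2- progeny, 2 Hox genes were called. Hoxc4 was 258, 465 and 495 in Sox1-FOXA2+ and 768, 1444 and 986 in Sox1+FOXA2- progeny, without overlap (log2 fold change -1.37, SE 0.40, adjusted p = 0.0961). Hoxb8 was 125, 36.7 and 154 against 512, 255 and 397, also without overlap (log2 fold change -1.87, SE 0.63, adjusted p = 0.195), and Hoxb3 was 17.8, 123 and 299 against 726, 253 and 462 (log2 fold change -1.60, SE 0.66, adjusted p = 0.369). All 3 were lower by the means in Sox1-FOXA2+ progeny.

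At D6, 5 of 18 Hox genes were lower in Sox1-FOXA2+ than in Sox1+FOXA2- progeny and none was higher, compared with 6.91% of all 21069 genes in either direction and 3.32% lower. Hoxb3 was 0, 11.3 and 19.8 in Sox1-FOXA2+ and 550, 474 and 363 in Sox1+FOXA2- progeny, 44.7 times lower (log2 fold change -5.53, SE 0.90, adjusted p = 0.00119). Hoxb9 was 5.17, 119 and 59.3 against 1768, 1091 and 984, 20.9 times lower (log2 fold change -4.42, SE 0.82, adjusted p = 0.00713). Hoxb4 was 407, 462 and 310 against 1105, 904 and 978, 2.53 times lower (log2 fold change -1.38, SE 0.31, adjusted p = 0.0124). Hoxb4, next to Hoxb3 in the cluster, was thus above 0 in all 3 Sox1-FOXA2+ libraries. Hoxc5 was 0, 10.3 and 54.8 against 476, 632 and 701, 27.8 times lower (log2 fold change -4.89, SE 1.06, adjusted p = 0.0162). Hoxc4 was 0, 41.1 and 95.2 against 864, 969 and 719, 18.7 times lower (log2 fold change -4.30, SE 1.11, adjusted p = 0.0475). None of the 5 genes overlapped between the gates, and the share of all genes without overlap was not computed. Hoxb3, Hoxc4 and Hoxc5 each had a Sox1-FOXA2+ library at 0. They passed the filter on low counts mainly through the other progeny gates, which largely set their direction. The counts of lower and higher Hox genes, and their distance from the share of all genes, therefore do not test direction. Hoxc13 was 153, 244 and 75.4 against 75.3, 64.9 and 36.9 and was not called (log2 fold change 1.37, SE 0.85, adjusted p = 0.481).

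**Figure D5:**
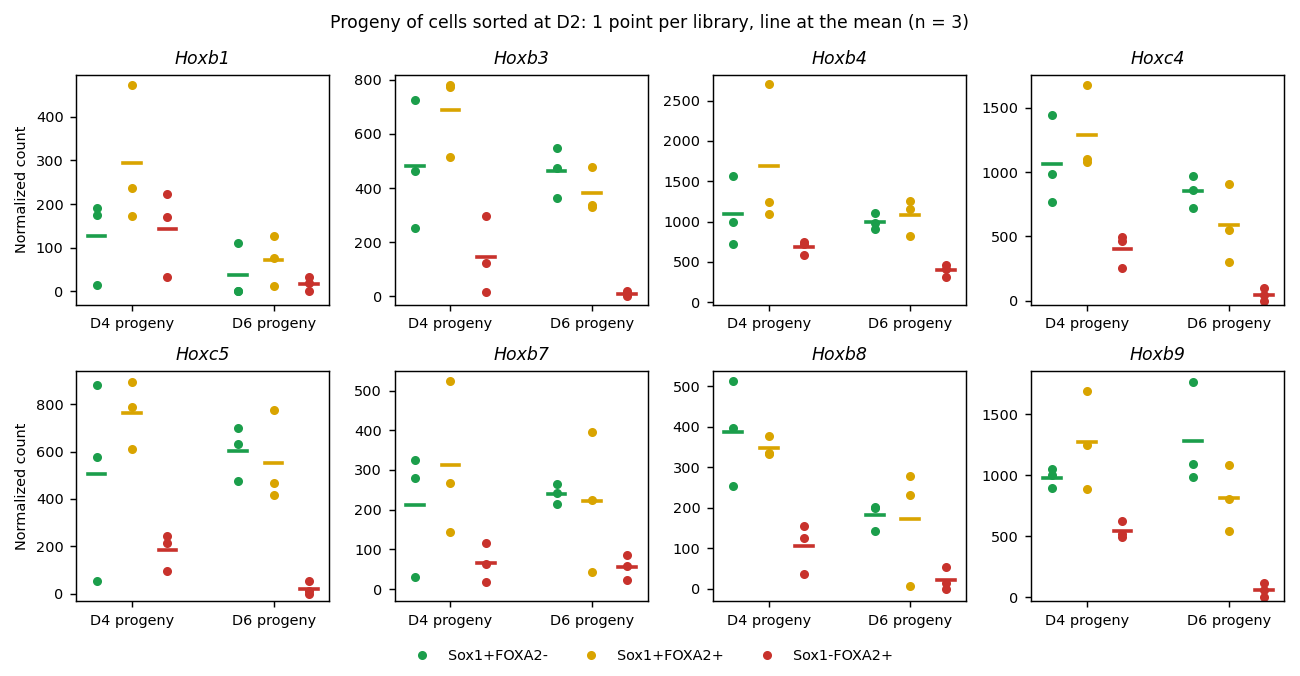
Normalized counts of 8 Hox genes in progeny at D4 and D6, with 1 point per library and a line at the mean of 3, gates by colour. At D6 the Sox1-FOXA2+ progeny lie below both other gates for Hoxb3, Hoxb4, Hoxb9, Hoxc4 and Hoxc5.

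Endoderm markers moved with this result. In Sox1-FOXA2+ D6 progeny they summed to 1015430, 1822640 and 1638690, with Lama1, a laminin of the basement membrane, the most abundant (mean 508962) and none of the 13 genes at 0, compared with 40392 to 120372 in Sox1+FOXA2- D6 progeny. A total of 10 of 13 endoderm markers were higher, 2 of 5 neural markers tested were lower, and of 10 neural crest and mesenchyme markers tested 3 were lower and 1 was higher. The part of cell type in the Hox result was not tested. The count of called Hox genes was 2 in the fit of all 57 libraries. It was also 2 without replicate 1 of Sox1+FOXA2- or replicate 3 of Sox1-FOXA2+ progeny, and 3 without replicate 2 or 3 of Sox1+FOXA2- or replicate 2 of Sox1-FOXA2+ progeny. Hoxb3 kept its call in all 12 alternatives, Hoxb9 in 11, Hoxb4 in 9, Hoxc5 in 7 and Hoxc4 in 6.

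Progeny of Sox1+FOXA2+ cells were set against both single-positive gates at D6. Against Sox1-FOXA2+ progeny, 4 of 18 Hox genes were higher and none was lower, compared with 4.63% of all genes in either direction and 2.28% higher. In the fit of all 57 libraries 0 were called. This comparison shares the Sox1-FOXA2+ libraries with the one above. Hoxb3 was 337, 477 and 330 (log2 fold change 5.19, SE 0.89, adjusted p = 0.00324), Hoxb4 was 1150, 1254 and 824 (log2 fold change 1.43, SE 0.31, adjusted p = 0.015), Hoxb9 was 542, 808 and 1085 (log2 fold change 3.71, SE 0.79, adjusted p = 0.0235) and Hoxc5 was 417, 776 and 467 (log2 fold change 4.71, SE 1.05, adjusted p = 0.0278) in Sox1+FOXA2+ progeny. None of the 4 overlapped with the Sox1-FOXA2+ progeny, and the share of all genes without overlap was not computed. Hoxb3 and Hoxc5, each with a Sox1-FOXA2+ library at 0, passed the filter on low counts mainly through the other progeny gates. This largely set their direction, so the count of higher Hox genes and its distance from the share of all genes do not test direction. The count was 1 without replicate 2 of Sox1+FOXA2+, 2 without replicate 1 or 3 of Sox1+FOXA2+ or replicate 3 of Sox1-FOXA2+ progeny, 3 without replicate 2 of Sox1-FOXA2+ and 5 without replicate 1 of Sox1-FOXA2+ progeny. Against Sox1+FOXA2- progeny, none of 18 Hox genes was called (0.18% of all genes). No Hox gene and 1976 of all 21069 genes had an unadjusted p under 0.05. DESeq2 called no Hox gene and 330 of all genes. Hoxb9 was 542, 808 and 1085 against 1768, 1091 and 984 (log2 fold change -0.71, SE 0.71, adjusted p = 0.848), with Hoxc13 (0.83, SE 0.85, adjusted p = 0.85) and Hoxb13 (1.03, SE 1.16, adjusted p = 0.871) next, all with overlap. These p-values do not show that the gates were alike. Endoderm markers summed to 402500, 248343 and 170885 in Sox1+FOXA2+ D6 progeny, between the other gates.

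The same lists were read between the D6 progeny. In Sox1-FOXA2+ against Sox1+FOXA2- progeny, 4 of 9 TALE cofactors were lower and none was higher. Among them, Meis2 was lower by 2.82, Pknox2 by 2.05 and Pbx3 by 0.87 on the log2 scale. Meis2 was 3270 ± 1663 in Sox1-FOXA2+ and 22217 ± 7143 in Sox1+FOXA2- progeny. Of the RA response list, 3 genes were higher, namely Cyp26a1 (3.93; 9819 ± 1269 against 621 ± 94.1), Cyp26c1 (8.03) and Stra6, the retinol transporter (3.47). In the same list 5 genes were lower, namely Crabp2 (-2.58), Hic1 (-2.67), Rxra (-1.57), Rara (-0.96) and Nrip1 (-0.73). The list thus moved in both directions, with the RA-degrading enzymes Cyp26a1 and Cyp26c1 among the genes that rose and 2 receptors among those that fell. In double-positive against Sox1+FOXA2- D6 progeny both enzymes were also higher (3.09 and 8.52), where no Hox gene was called. Of 6 hindbrain genes tested, 2 were higher, Epha4 (2.30) among them, and of 7 posterior axis genes Sall4 was higher (2.86). Emx2 was lower (-3.97) among 10 forebrain and midbrain genes, and Ezh1 was higher (1.06) and Rnf2 lower (-0.77) among 15 Polycomb and trithorax genes. Klf4 was higher (2.77) among 7 pluripotency markers. In Sox1+FOXA2+ against Sox1-FOXA2+ progeny, Meis2 (2.04) and Pbx3 (1.03) were among the genes that were higher.

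Meis2 was also lower in Sox1-FOXA2+ than in Sox1+FOXA2- sorted cells at D6 (log2 fold change -1.57, adjusted p = 0.0297). No Hox gene was called in that comparison. From D2 to D6, Stra8 fell in all 4 gates, by 2.98 in the double-negative, 3.25 in the neural single-positive, 4.84 in the endoderm single-positive and 3.18 in the double-positive gate.

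Progeny and directly sorted cells of the same 3 gates were compared at each day, as a reading of replating and medium together. Markers of other cell types moved in these comparisons. Of 10 neural crest and mesenchyme markers tested, Col1a1 (log2 fold change 5.01 at D4 and 5.62 at D6) and Acta2 (4.86 and 5.16) were higher in progeny at both days, and Tfap2b was lower at D6 (-3.85). The summed level of this list of 11 genes, with Foxd3 at 0, was 65125 ± 25347 in Sox1+FOXA2- D4 progeny, where Acta2 was the most abundant, and 5004 ± 1732 in the sorted gate. Of 5 neural markers tested, Nes was higher (1.87 and 2.08) and Pax6 lower (-1.48 and -2.20) at both days. Of 7 pluripotency markers, 1 was lower at D4, and 4 were lower and 1 higher at D6. Of the endoderm markers, 1 of 12 was higher at D4 and 0 of 13 were called at D6. Meox1, 1 of 7 mesoderm markers tested, was lower at both days (-3.54 and -2.67). The part of these cell types in the Hox values was not tested. At D4, 2 of 21 Hox genes were higher in progeny and none was lower, compared with 6.75% of all 24857 genes in either direction and 3.26% higher. Hoxb9 was 493 to 1690 (median 892) in 9 progeny libraries and 129 to 1442 (median 260) in 9 sorted libraries, with overlap (log2 fold change 1.20, SE 0.35, adjusted p = 0.0344). Hoxc10 was 0 in all sorted and 0 to 39.2 in progeny libraries (adjusted p = 0.0367), a difference at the level of few counts. It passed the filter on low counts only through the progeny and had to be higher there, which leaves Hoxb9 as the other call. The count of 2 lies near the background. It stayed at 2 without replicate 1 of Sox1+FOXA2+ D4, the library with Foxa2 at 214 and a summed Hox level of 2025. It was 0 without replicate 3 of Sox1+FOXA2+ D4, replicate 1 or 3 of Sox1-FOXA2+ D4, or replicate 1 or 2 of Sox1+FOXA2+ D4 progeny, and it was 1 without replicate 3 of Sox1+FOXA2- D4, any replicate of Sox1-FOXA2+ D4 progeny, or replicate 3 of Sox1+FOXA2- or Sox1+FOXA2+ D4 progeny. At D6, 12.3% of all 25515 genes were called and none of 21 Hox genes. An unadjusted p under 0.05 was reached by 3 Hox genes and 6750 of all genes. DESeq2 called 3 Hox genes and 5602 of all genes. The count of called Hox genes stayed at 0 without either of the Sox1+FOXA2+ D6 libraries that went against their label (replicates 1 and 3). It was 2 without replicate 2 of Sox1+FOXA2+ D6 or replicate 1 of Sox1-FOXA2+ D6, and 1 without replicate 1 of Sox1+FOXA2- D6, replicate 2 or 3 of Sox1-FOXA2+ D6 or replicate 3 of Sox1-FOXA2+ D6 progeny. Hoxb4 was 310 to 1254 (median 904) in progeny and 0 to 545 (median 295) in sorted libraries, at the threshold (log2 fold change 1.70, SE 0.58, adjusted p = 0.05). Hoxc12 (adjusted p = 0.0582) and Hoxc10 (adjusted p = 0.0598) were close to it, with most libraries at 0.

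From D4 to D6 progeny, over all 3 gates, 1 of 20 Hox genes was called, lower, compared with 1.99% of all 24025 genes in either direction and 0.912% lower. In the fit of all 57 libraries 0 were called. The count of calls was 4 without replicate 1 of Sox1-FOXA2+ D6 progeny, and 2 without replicate 2 or 3 of it, replicate 1 of Sox1-FOXA2+ D4 progeny or replicate 3 of Sox1+FOXA2- D6 progeny. Hoxb3 (adjusted p = 0.0643) and Hoxb9 (adjusted p = 0.081) were not called and had overlapping groups. Endoderm markers moved with the day, 6 of 13 being higher at D6 and none lower, among them Lama1 (log2 fold change 2.31) and Gata4 (1.86), and their sum went from 31766 ± 9680 to 92760 ± 45374 in Sox1+FOXA2- progeny. Nes was lower (-0.97) among 5 neural markers tested, and of 10 neural crest and mesenchyme markers Pdgfra was higher (1.23) and Prrx2 lower (-1.52). Klf4 was higher (1.44) among 7 pluripotency markers, and none of 8 mesoderm markers was called. The part of these cell types in the Hox values was not tested. The interaction of day and gate, Sox1-FOXA2+ against Sox1+FOXA2- progeny, was a comparison chosen after the data had been seen. It called 0 of 20 Hox genes and 0% of all 24025 genes, and 5 Hox genes and 1300 of all genes had an unadjusted p under 0.05. DESeq2 called 1 Hox gene and 47 of all genes. Without replicate 1 of Sox1-FOXA2+ D6 progeny, 1 Hox gene was called. The smallest p-values were those of Hoxb9 (log2 difference -3.45, SE 0.81, adjusted p = 0.389), Hoxb3 (-3.80, SE 1.10, adjusted p = 0.786) and Hoxd9 (-8.44, SE 3.68, adjusted p = 0.885). In the edgeR fit without a replicate block, the lower Hox levels in Sox1-FOXA2+ progeny were thus called at D6 and not at D4. At D4, where replicate numbers paired the samples, the block called 1 Hox gene lower and DESeq2 called 2 lower. They called 885 and 750 of all 20697 genes in either direction. The edgeR test of the difference between the days called none.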

How the data were processed

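RNA was sequenced from 57 libraries prepared with the SMART-Seq Stranded Kit. Reads were aligned with STAR, handled with SAMtools and counted with featureCounts against GENCODE M21 (GRCm38), per the labels and the study's methods. Versions and the strand setting are not given in the sources used here. The authors deposited raw read counts per gene, not normalized, and 92 rows that name no gene held 0 counts and were left out.

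Counts were tested with the edgeR 4.0.16 quasi-likelihood test in R 4.3.3 (limma 3.58.1), with TMM scaling, filterByExpr (minimum count 10, minimum total 15), robust moderation and a prior count of 0.125. P-values were adjusted over all genes tested by the Benjamini-Hochberg method, with 0.05 as the threshold, two-sided. Standard errors were taken from the log2 fold change and the F statistic. Levels are counts divided by DESeq2 1.42.0 size factors over the 57 libraries. A bound against a group at 0 uses 3 counts in each library of the group, normalized and averaged.

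Alternatives were DESeq2, its size factors in edgeR, no filter, a replicate block, 1 fit of all 57 libraries and leaving out each replicate. Robust moderation was chosen after several settings had been tried, and the fit without it, the length of the unshared span and the progeny interaction were added after the data had been seen. The Hox genes, the other gene lists and the motifs were chosen with earlier results of these data known. Values in full were given for the called Hox genes of a comparison, at most 8 by smallest p, or for the 3 with the smallest p where none was called, and levels in all conditions for the 3 genes of the highest level per kb in each range of paralogue numbers. Other genes were named after their values had been seen. Some genes that these rules would name are not reported here, and counts and sums over lists still include them. In simulated data the comparison of D2 with D0 made more false calls than the threshold allows, mostly of genes lower at D2.

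Replicate numbers were taken to pair samples where every same-numbered pair of libraries correlated above 0.1 over 5000 genes. This held for D6 against D2 in Sox1-FOXA2- cells, for the 2 single-positive gates compared with each other in sorted cells of D4 and of D6 and in progeny of D4, for double-positive against neural single-positive cells at D6, and for double-positive against endoderm single-positive D6 progeny. Library totals bound the precision at low levels, and bounds cover counting error only.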

Additional observations from a re-analysis of the deposited data

Results flagged for a closer look

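Hotairm1 and Hoxb3os were drawn out because they are antisense genes inside the clusters, outside the comparisons of the Hox genes, whose counts at D2 were above those of all D0 libraries. Hotairm1 had a mean of 611 normalized counts over the 12 D2 libraries (42.3 to 1187), and its highest D0 library was 33.6. Hoxb3os, which spans Hoxb2 and part of Hoxb3, had a mean of 349 over the D2 libraries (1.36 to 867), and its highest D0 library was 1.24. Reads over bases shared with Hox genes were not assigned, so these values came from the rest of each span. Strand was not stated for the counting, so reads there could not be separated by strand. No cause was tested.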

How the results depend on the processing

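The count of Hox genes called at D2 against D0 was 6 to 9 when single libraries were left out and 7 with the replicate block. In the comparison of D6 with D2, Sox1-FOXA2+ cells gave 5 calls with DESeq2, 3 with no filter, 1 with the replicate block, 1 in the fit of all 57 libraries and 0 to 2 without single libraries, and Sox1+FOXA2+ cells gave 4 with DESeq2 and 2 with no filter. The interaction of day and gate in sorted cells gave 2 with DESeq2 and 0 to 1 without single libraries. At D6, DESeq2 called 1 between the single-positive gates (0 to 1 without single libraries) and 1 in the double-positive against the Sox1-FOXA2+ gate. In D4 progeny, the single-positive gates gave 2 with DESeq2, 1 with no filter, 1 with the block and 0 to 2 without single libraries. In D6 progeny they gave 2 in the fit of all 57 libraries and 2 to 5 without single libraries, and the comparison of double-positive with Sox1-FOXA2+ progeny gave 0 and 1 to 5. Progeny against sorted cells gave at D4 4 with no filter, 1 in the fit of all libraries, 3 with the block and 0 to 3 without single libraries, and at D6 3 with DESeq2, 2 with no filter, 1 with the block, 1 in the fit of all libraries and 0 to 2 without single libraries. D6 against D4 progeny gave 4 with DESeq2, 6 with no filter, 0 in the fit of all libraries, 2 without robust moderation and 1 to 4 without single libraries. The progeny interaction gave 1 with DESeq2, 4 with no filter and 0 to 1 without single libraries. The block moved no other count by more than 1.5 times. These counts stand without the share of all genes called in each alternative, so by themselves they are no result about the Hox genes. The causes were not tested.

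Of 390 alternative values of called Hox genes, 289 kept their call, 101 lost it and 0 changed direction. Among genes not called, Hoxa13 in D6 against D2 of Sox1+FOXA2- cells went to 0 without its only library with counts (7.70 at the other end), Hoxd11 between the single-positive gates at D4 went to 0 in the same way (7.12 at the other end), Hoxd13 in the sorted interaction ranged from -8.97 to 0.064, the latter without replicate 2 of Sox1-FOXA2+ D2, and Hoxb13 in double-positive against Sox1+FOXA2- D6 progeny ranged from -0.24, without replicate 1 of the former, to 1.45. DESeq2 size factors moved the median log2 fold change of all genes from 0.39 to 0.54 (D6 against D2, Sox1+FOXA2-), 0.58 to 0.83 (the same, Sox1+FOXA2+), 0.25 to 0.46 (Sox1+FOXA2+ against Sox1-FOXA2+ at D6) and -0.28 to -0.41 (progeny against sorted at D6), with no call of a Hox gene gained or lost there. Few counts limit what can be shown for Hoxd10, Hoxa11, Hoxc11, Hoxc12 and Hoxd12, each with a count in at most 8 of 57 libraries.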
